A study of Mus musculus with 2 samples.

Results

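The vascular endothelial growth factor (VEGF) family was examined through 9 genes: the ligand genes Vegfa, Vegfb, Vegfc and Pgf, the receptor tyrosine kinase genes Kdr, Flt1 and Flt4, and the neuropilin genes Nrp1 and Nrp2. Members were the probes that the platform annotation names after these genes, with the brightest probe taken for each gene. By that rule 8 of the 9 genes were measured, each by 1 probe, among 16444 named genes in all. The ninth, Nrp2, is not a name in the annotation used here, which holds a probe under Npn2, a RefSeq synonym of Nrp2 alone. Its values are given separately and it is left out of the counts.

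RNA came from mouse embryonic stem cells that had been cultured on OP9 cells, a stromal line that supports blood formation, and then sorted for Flk-1, the surface receptor encoded by Kdr. In the gene-trapped sample both alleles of AU019823 carried a gene trap, a cassette that cuts transcripts short. The revertant sample came from cells of the reverted genotype, which the labels place close to wild type. Each group had 1 sample on 1 array, from 300000 gene-trapped and 350000 revertant cells. The descriptions give day 4.5 for both samples and the protocol gives 4 days of coculture with OP9 cells. Both samples therefore share the OP9 culture, the Flk-1 sort and the stem cell origin. They carry different clone-like codes, so a difference between clones and a difference between genotypes cannot be told apart. The strain of the cells is not given in the sources used here.

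VEGF ligands are secreted dimers that act on mesoderm and endothelium. VEGF-A binds the receptors Flt1 and Kdr, whereas VEGF-B and placental growth factor, the product of Pgf, bind Flt1. VEGF-C acts on Flt4 and, once processed, on Kdr. Kdr carries most of the signal for growth and survival and is needed for the first endothelial and blood cells of the embryo. Flt1 binds VEGF-A tightly with weak kinase activity and, also as a secreted form, holds ligand away from Kdr. Neuropilins bind both VEGF and class 3 semaphorins and work beside the receptor kinases.

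All signals are spot medians in arbitrary units. The revertant array was the brighter, with a median over probes of 47.5 against 38.59, so a raw signal that is slightly lower on the gene-trapped array is the common case. Spots without a probe (blank spots) averaged 22.46 and 20.11, and a gene counted as above background when it lay over 2 SD above that mean, that is above 24.99 and 22.26. By this limit 14233 named genes were detected on the revertant array, 14021 on the gene-trapped array and 13753 on both. Differences are gene-trapped minus revertant in log2 of the normalized signal. With 1 array per group there is no replicate check and no p-value, and a gene was called when its normalized signals lay 2-fold or more apart. The only measured error is technical. The positive controls, with 24 spots each, gave SDs of the log2 ratio of 0.1075 and 0.0989. The brightest probes of the same gene disagreed by a median of 0.12 over 141 genes, with a 90th percentile of 0.46. Each member rests on 1 probe. Neither the control spots nor the probe pairs cover the spread between cultures. AU019823 itself had signals of 486.2 and 296.7, a difference of -0.39. The place of its probe relative to the trap is unknown, so this value checks nothing.

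All 8 measured VEGF genes passed the background limit of each array, and all 8 had a normalized difference below 0. Flt1 and Vegfb were lower in gene-trapped cells by at least 2-fold, and 0 of the 8 were higher by that size. Among all 13753 genes 1.08% were lower by that size, 0.334% were higher and 1.41% differed in either direction. The median of the 8 genes was -0.45, against 0.008 over all genes, of which 46.59% lay below 0. In sorted bulk cells, fewer cells of a type and less RNA per cell cannot be told apart.

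**Figure D1:**
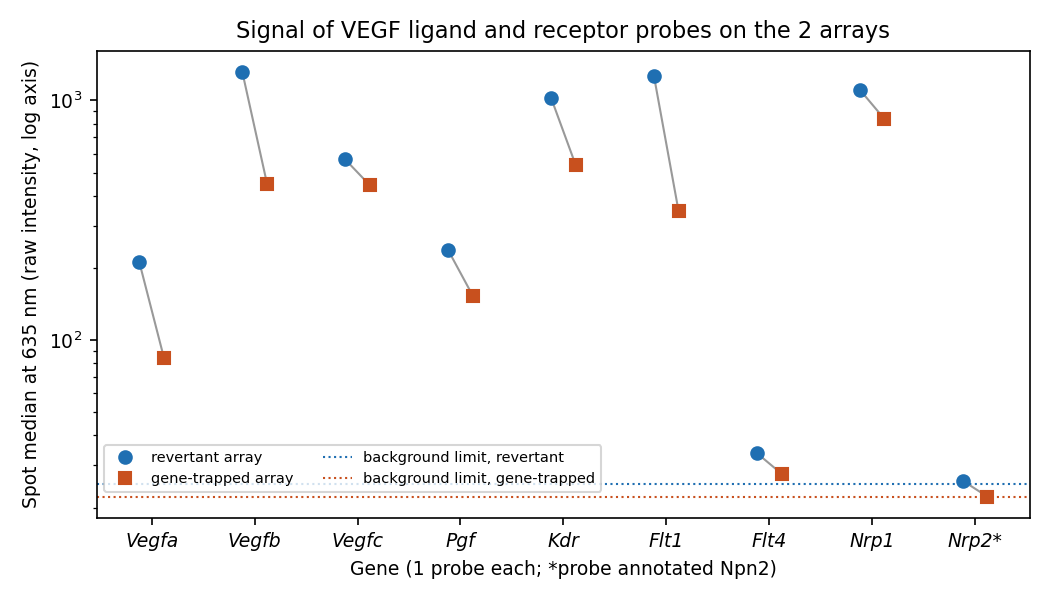
Raw spot median (log axis, arbitrary units) of each VEGF gene probe on the revertant array (circles) and the gene-trapped array (squares), 1 array each, with the background limits as dotted lines. Every pair slopes down; the steepest are Flt1 (1263 to 344.1) and Vegfb (1313 to 449.5), while Flt4 and the Npn2 probe lie near the limits. Levels of different probes are not comparable.

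Among the ligands Vegfb stood lowest. The signal of the Vegfb probe was 1313 for revertant cells and 449.5 for gene-trapped cells. Its normalized difference was -1.23, a 2.351-fold lower signal, and 0.5381% of all genes lay as low or lower. VEGF-B is a ligand of Flt1 that is dispensable for the formation of vessels in the embryo. The Vegfa probe, for the ligand whose dose the embryonic vasculature depends on, had 210.7 and 83.8. Its difference of -0.77 (1.707-fold lower) stayed short of 2-fold, and 1.992% of genes lay as low. In the authors' deposited table the Vegfa values were 123.757 and 54.365, which is 2.276-fold lower and past the 2-fold size, as were 3.91% of all genes in that table, while 1.84% were at least 2-fold higher there. The main setting adds a constant, the offset, to each signal, which makes differences of dim probes smaller. With a smaller offset Vegfa had -0.98. Less the blank mean, the Vegfa signals were 188.2 and 63.68 and the Vegfb signals 1291 and 429.4. On each array these stood in nearly the same proportion to the deposited values, which were 848.465 and 366.375 for Vegfb. Signals less the blank mean carry no offset, but how the deposited table was made was not tested.

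The other ligands differed less. The Pgf probe had signals of 237.3 and 153, with a difference of -0.24, and 12.27% of genes lay as low. Placental growth factor shares Flt1 with VEGF-B, and the difference of Vegfb less that of Pgf was -0.99. The Vegfc probe, for a ligand best known in lymphatic vessels, had 566.6 and 441.9. Its difference was -0.07, inside the technical spread of the control spots, and in the authors' deposited table the values were 357.677 and 359.946, a log2 difference of 0.01. The ligands thus fell into a lower pair, Vegfb and Vegfa, and a pair with differences from -0.24 to -0.07. The gap between Vegfa and Vegfc was -0.70 and kept its sign under all ways of processing, from -1.20 in the authors' table to -0.46 with the local background subtracted.

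The promoters of the lower pair of ligands are shown because both genes had lower signals. The sequences are from RefSeq (GRCm38.p6), 250 bases up to the annotated start, 5′ to 3′ on the gene's strand. Capitals mark any match, on either strand, to the core bound by hypoxia-inducible factors (HIF; ACGTG or GCGTG), the core bound by ETS factors (GGAAG), the GC box (GGGCGG) or the cyclic AMP response element (TGACGTCA). The Vegfb window is chr19:6987652-6987901 and the Vegfa window chr17:46032378-46032627, both on the minus strand.
Vegfb: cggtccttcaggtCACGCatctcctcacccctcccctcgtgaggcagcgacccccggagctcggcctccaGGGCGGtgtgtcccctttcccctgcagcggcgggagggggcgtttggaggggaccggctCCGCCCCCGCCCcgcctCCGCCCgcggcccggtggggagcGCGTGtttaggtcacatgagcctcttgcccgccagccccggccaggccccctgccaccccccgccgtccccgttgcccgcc
Vegfa: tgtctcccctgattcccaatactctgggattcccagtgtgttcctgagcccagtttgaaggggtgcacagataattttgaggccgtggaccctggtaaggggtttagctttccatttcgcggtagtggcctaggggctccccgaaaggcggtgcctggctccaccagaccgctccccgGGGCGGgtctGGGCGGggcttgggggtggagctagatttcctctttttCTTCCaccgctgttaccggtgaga
The Vegfb window held 2 matches to the HIF core and 4 to the GC box. The Vegfa window held 2 GC boxes, 1 ETS core and 0 HIF cores, and the window of a second annotated Vegfa start, further into the gene, held 2 HIF cores. These are matches of letters only. Of 32851 promoter windows of the same length, 38.6% held a HIF core, 64.1% an ETS core and 32.7% a GC box. The window of Vegfc, with a difference near 0, held 2 GC boxes, 0 HIF cores and 0 ETS cores. Other members with small differences did hold such cores. The Nrp1 window (difference -0.15) held 1 HIF core and 3 ETS cores, and the Flt4 window (-0.02) held 1 ETS core. A Pgf window (-0.24) held 1 HIF core. A link between motifs and differences was not tested.

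Among the receptor genes Flt1 had the lowest value. The signal of its probe was 1263 for revertant cells and 344.1 for gene-trapped cells. The normalized difference was -1.53, a 2.891-fold lower signal, and 0.2399% of all genes lay as low. In the authors' deposited table the values were 815.118 and 276.457, which is 2.948-fold lower. The probe does not tell membrane Flt1 from its secreted form, as its place in the transcript is not given in the sources used here.

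Kdr, whose protein had been used to sort the cells, had signals of 1025 and 536.7. The difference was -0.65 (1.573-fold lower), short of 2-fold, and 2.828% of genes lay as low. Both arrays showed Kdr far above background, at 41.01 times the limit on the revertant array and 24.12 times on the gene-trapped array. The gate selected protein at the surface, so the transcript values describe cells that had all been sorted as Flk-1-positive. The difference of Flt1 less that of Kdr was -0.88 on the log2 scale. A constant scaling of the arrays cancels in that gap, but it turned to 0.26 with the scanner's local background subtracted, where Kdr had -2.04 and Flt1 -1.78. In that setting 1.35% of all genes were at least 2-fold lower and 2.04% at least 2-fold higher. On the gene-trapped array the local background at the Kdr spot was 84.47% of its signal. The median was 42.32% over 320 probes with signals within 10% of it, and most of those lay between 13.41% and 88.76%.

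For the receptor pair, stretches of 30 bases from the RefSeq promoter windows are shown. The Flt1 stretch holds neighbouring matches to the motifs marked above, and the Kdr stretch holds the first of its HIF cores. The Flt1 stretch is chr5:147726066-147726095 and begins 84 bases before the annotated start. The Kdr stretch is chr5:75978581-75978610 and begins 155 bases before the start. Both lie on the minus strand.
Flt1: cctTGACGTCActGGAAGgaggtgccgggg
Kdr: agttccggggtagtgggggagtggGCGTGg
The whole Flt1 window held the cyclic AMP response element, found in 1.55% of all windows, once, together with 3 ETS cores, 3 GC boxes and 1 HIF core. The whole Kdr window held 2 HIF cores, 1 ETS core and 2 GC boxes. These too are matches of letters only, and a link to the differences was not tested.

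Flt4, the receptor for VEGF-C, was barely detected. Its signals of 33.78 and 27.7 were 1.352 and 1.245 times the limits, and its difference was -0.02. Its sign depended on scaling: it was 0.18 when arrays were scaled to their 75th percentile, a setting that moves the median of all genes to 0.151. At this level a difference of Flt4 could not be resolved. Nrp1, the co-receptor that binds VEGF-A beside Kdr, had signals of 1108 and 835.7 and a difference of -0.15, with 18.27% of genes as low. In the authors' deposited table Nrp1 was 713.273 and 695.933, a log2 difference of -0.04. The probe under the Nrp2 synonym had 25.92 on the revertant array, just over the limit, and 22.24 on the gene-trapped array, just under it. Nrp2 was therefore not well above background, and no fold is given.

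**Figure D2:**
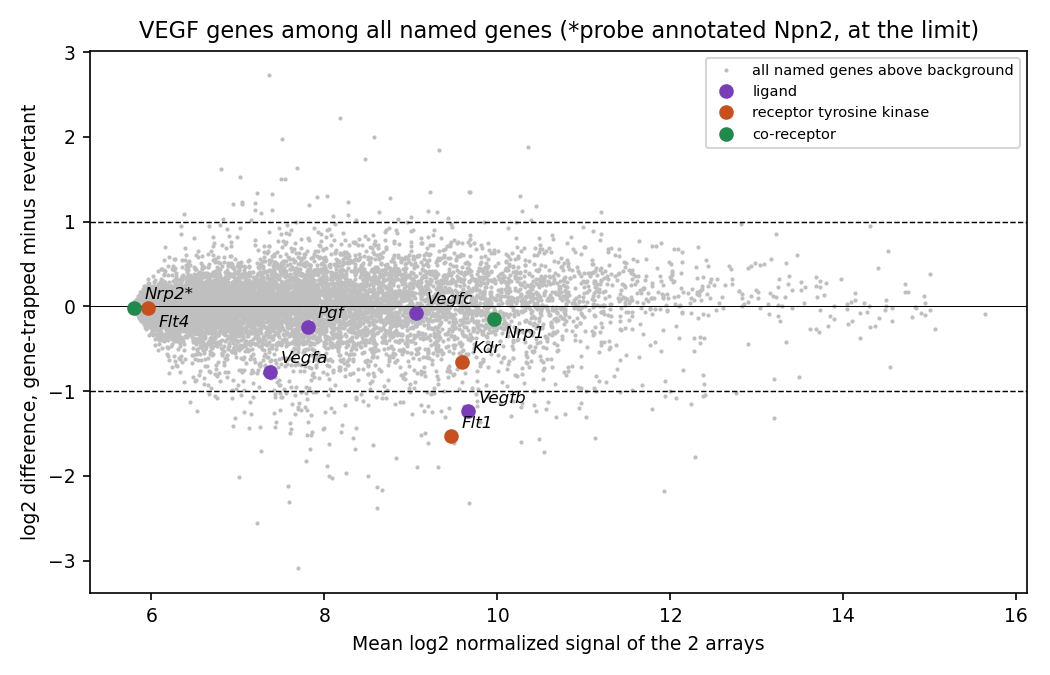
log2 difference (gene-trapped minus revertant) against the mean log2 normalized signal for 13753 named genes above background (grey points) and the VEGF genes (coloured by role), with dashed lines at 2-fold. Flt1 at -1.53 and Vegfb at -1.23 lie below the lower line; Vegfa (-0.77) and Kdr (-0.65) lie between that line and 0; the Npn2 probe is drawn although it was not above background on the gene-trapped array.

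The differences of Flt1, Kdr and Vegfa kept their sign under the 8 other settings that can change them, and Vegfb did too. Flt1 ranged from -1.78 to -1.50 and was at least 2-fold lower in each. Vegfb ranged from -1.34 to -1.20, except with the local background subtracted, where it was -0.62 and no longer called. At that spot the local background was 903.6 in the revertant scan and 169.9 in the gene-trapped scan, so subtraction took more from the revertant signal. These were 68.8% and 37.79% of the signals, against medians of 59.24% and 47.11% over probes of similar signal. Kdr ranged from -0.75 to -0.58, apart from the -2.04 given above. Vegfa ranged from -1.19 to -0.62.

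**Figure D3:**
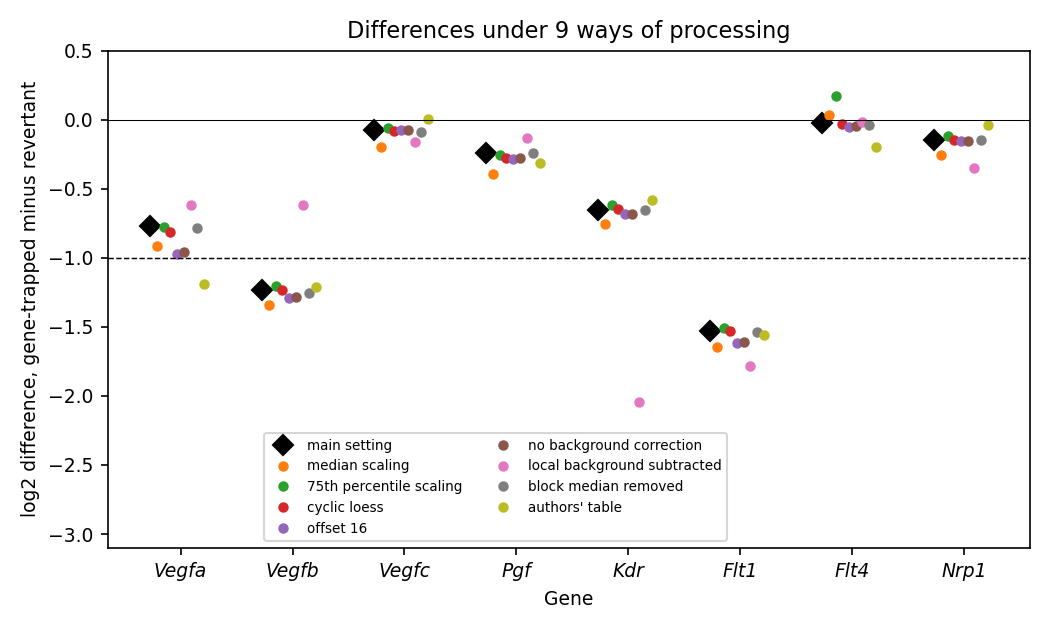
log2 difference (gene-trapped minus revertant) of the 8 VEGF genes in the main setting (diamonds) and under 8 other ways of processing (circles), with a dashed line at 2-fold lower. Flt1 is below the line in each; Kdr at -2.04 and Vegfb at -0.62 stand apart from their other values only with the local background subtracted. The mean over a gene's probes is not drawn, since each of these genes has 1 probe.

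The genes around the family were read from lists of other members of the pathway. Of 22 partners and modulators of the receptors above background, 0 were at least 2-fold apart, 11 lay below 0 and the median was -0.01. The integrin subunit gene Itgav had 0.39 and Efnb2, for a membrane ligand that takes part in receptor uptake, 0.24. The heparan sulfate proteoglycan gene Sdc4 had -0.40 and the endocytic adaptor gene Dab2 -0.23. The last pair, Sdc4 at -1.03 and Dab2 at -1.58, was called in the authors' deposited table. The gene-trapped signal of Dab2, 24.66, lay near the limit of 22.26. Figf, the older name of the fifth ligand VEGF-D, had signals of 35.74 and 30.64 near background and a difference of 0.02. Cdh5, the endothelial cadherin that associates with Kdr, was above background only on the revertant array, at 29.71 against 22.24.

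Signal transducers below the receptors had a median of -0.04 over 44 genes, 27 of them below 0. The kinase gene Map2k1, which relays signals to ERK, was at least 2-fold lower, with signals of 1115 and 358.1 and a difference of -1.30. It was the only transducer called in the main setting, where 1.41% of all genes were called. Map2k1, Plcg2 (-1.43), Prkca (-1.42) and Fyn (-1.07) were at least 2-fold lower in the authors' deposited table, and Shb was higher (1.15). Plcg2 and Prkca had gene-trapped signals of 29.82 and 27.13, near the limit of 22.26. With the local background subtracted Map2k1 and Ppp3cb (-1.16) were lower and Crk higher (1.37). Mapk3, for one of the ERK kinases, had -0.75 and the Src-family kinase gene Fyn -0.65. Akt1, a kinase of cell survival, had 0.65. Among genes known to respond to VEGF-A in endothelium, 0 of 20 were at least 2-fold apart, 13 lay above 0 and the median was 0.10. The growth factor gene Hbegf had 0.45 and the coagulation factor gene F3 0.36, whereas Klf4 had -0.36 and the hormone gene Stc1 -0.70. Stc1 (-1.60) and Hey2 (-1.06) were called in the authors' deposited table, and Klf4 (-1.57) with the local background subtracted. Of 10 semaphorin and plexin genes that pair with neuropilins, 8 lay below 0 and 0 were called. They had a median of -0.10, and the lowest was the guidance ligand gene Sema3a at -0.32. Sema3b had -0.28, the receptor gene Plxnd1 -0.19 and Sema3f -0.15. Their median was -0.51 in the authors' deposited table, with Sema3a (-1.02) and Sema3b (-1.01) called.

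Upstream of Vegfa, the HIF subunits and their regulators split. Of 13 genes, 2 were at least 2-fold lower: Egln1, an oxygen-sensing hydroxylase that marks HIF for degradation, with signals of 689.1 and 160.7 and a difference of -1.64, and its relative Egln3, with 395 and 94.07 and -1.48. With the local background subtracted Egln1 had -0.26 and was no longer called, while Egln3 had -1.50. Both are themselves known to be induced by HIF. The median was -0.10. Epas1, a HIF subunit, had -0.26 and the hydroxylase gene Hif1an 0.27. Of 6 genes for proteins that bind Vegfa RNA, 0 were called, with a median of 0.02. Zfp36l1 had 0.33, Elavl1 0.18, Qk -0.10 and Zfp36l2 -0.07. Qk had -1.03 with the local background subtracted.

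Of 17 transcription factors that act on Kdr and Flt1, 1 was called in the main setting, and it was higher. Etv2, the ETS factor needed for endothelial and blood progenitors, had signals of 810.5 and 1739 and a difference of 1.30, which stayed between 1.13 and 1.50 under all settings. Kdr and Flt1 are among its known targets, and their differences had the opposite sign. Tal1, a blood and endothelial factor, had -0.69, Ets2 -0.50 and Gata2 -0.40. The median of the list was -0.06. Hey2 was called as well in the authors' deposited table, at -1.06.

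Other receptor tyrosine kinases with immunoglobulin domains were the group most like the VEGF receptors. Of 14 above background, 9 lay below 0 and 1 was called, with a median of -0.25 against -0.40 over the 4 VEGF receptor genes measured. The called gene was Tek, the angiopoietin receptor, with signals of 186.8 and 42.89 and a difference of -1.31. Its relative Tie1 had -0.56, and the fibroblast growth factor receptor genes Fgfr2 and Fgfr3 had -0.93 and -0.83. The order of the medians turned in the authors' deposited table, with -0.46 for these receptors and -0.39 for the VEGF receptors. The VEGF receptor list includes Nrp1, a co-receptor and not a kinase. Among its kinase genes Flt1, Kdr and Flt4 the order did not turn. Their middle value, that of Kdr, was -0.65 in the main setting and -0.58 in the authors' deposited table. There 5 of the 14 were at least 2-fold lower, against 3.91% of all genes: Tek, Tie1, Fgfr3, Fgfr2 and Kit. The gene-trapped signal of Tie1, 26.05, lay near the limit of 22.26. No test of the difference between these lists was possible with 1 array per group. Of 10 ligand genes of those receptors 0 were called and the median was -0.01, against -0.51 over the 4 VEGF ligand genes. Pdgfa had 0.49, Kitl 0.26, Csf1 0.17 and Angpt1 -0.30. The same medians were -0.09 and -0.75 in the authors' deposited table, where Pdgfd (-1.57) was called. The gene-trapped signal of Pdgfd, 22.45, was just over the limit of 22.26.

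**Figure D4:**
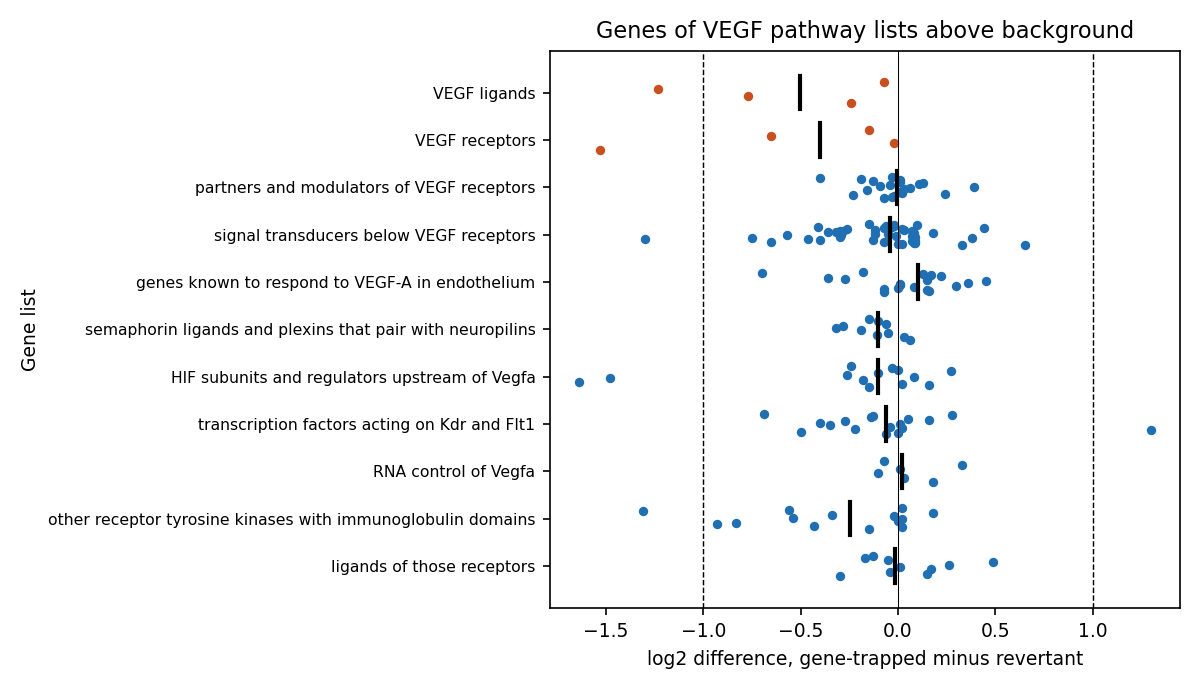
log2 difference (gene-trapped minus revertant) of each gene above background on both arrays, by list (VEGF ligands and receptors in orange, other lists in blue); black bars are medians and dashed lines mark 2-fold. The medians of the ligands (-0.51) and receptors (-0.40) lie lower than those of the other 9 lists in this main setting, whose lowest is -0.25. In the authors' deposited table the receptors, with the co-receptor Nrp1 included, have -0.39. That is not lower than -0.46 for the other receptor kinases and -0.51 for the semaphorins and plexins.

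In the genome, Kdr follows Pdgfra and Kit, a row of related receptor genes, and Flt1 lies 2 genes from Flt3. The order is that of RefSeq protein-coding genes in GRCm38.p6. Kit, the stem cell factor receptor, had a difference of -0.54 and Pdgfra, a receptor of early mesoderm, -0.02, against -0.65 for Kdr. Flt3 had signals of 25.08 and 22.81 at the limit of detection and a difference of 0.02, against -1.53 for Flt1. The second gene on the other side of Flt1, Slc46a3 (1200006F02Rik in the annotation), had -1.26. Over the next coding gene on either side of each of the 8 members, 13 were above background, 1 was at least 2-fold lower and the median was -0.08. That gene was Fkbp2, for a prolyl isomerase, beside Vegfb, at -1.18. Up to the second gene on either side, 2 of 28 were at least 2-fold lower and 0 were higher, against 1.08% and 0.334% of all genes. The 2 were Fkbp2 and Slc46a3. Both are named because of their values, not by a rule.

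Marker genes of cell types the gate could hold were read in the same way. All 15 measured markers of nascent and lateral mesoderm were above background on both arrays, with Mixl1 at 1.99, Etv2 at 1.30, Lhx1 at 0.87 and T at 0.76. The list went both ways, with 8 above 0 and 7 below 0, Tbx20 lowest at -0.70, and had a median of 0.19. Endothelial markers had a median of -0.55: 10 of 11 lay below 0 and 2 were called, Pecam1 at -1.27 and Tek at -1.31, whereas Eng had 0.72. Their median was -1.11 in the authors' deposited table, with 6 of 11 at least 2-fold lower, against 3.91% of all genes, and Eng at least 2-fold higher. With the local background subtracted their median was -0.17, and Tek alone was called, at -1.13. Their summed signal above blank was 2176 for revertant cells and 1009 for gene-trapped cells, a ratio of 0.4637, against 0.8026 over all named genes. The same ratio was 0.4683 for the VEGF ligands and 0.4984 for the VEGF receptors. It was also 0.4972 for the HIF list, 0.4956 for the other receptor kinases and 0.4363 for cardiac markers. Other lists ranged up to 1.671, for markers of undifferentiated stem cells. Such sums are led by the brightest probes. Among stem cell markers Tdgf1 had 706.8 and 2249, while Klf4 had 994.3 and 643.6. The cardiac sums held Tnnt2 (931.5 and 123.3) and Myl7 (974.6 and 808.3). The brightest endothelial marker was Egfl7 (1477 and 797.2). Egfl7 had -0.64, but 0.15 with the local background subtracted. Hematopoietic markers had a median of -0.51 over 7 genes with 0 called, and a ratio of 0.4407 (655.8 and 289). Of the 7 markers, 6 lay below 0. Runx1 had 0.25 and stayed above 0 in all settings, from 0.11 to 0.33. In the authors' deposited table their median was -1.22 and 4 were at least 2-fold lower, Nfe2 at -2.94, Itga2b at -2.89, Gata1 at -1.51 and Myb at -1.22. The gene-trapped signals of Nfe2, Itga2b and Myb, 23.3, 25.41 and 27.83, lay near the limit of 22.26. With the local background subtracted the hematopoietic median was -0.11 and 0 of the 7 were called. Ptprc, the pan-leukocyte marker, was not above background on both arrays.

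Of 14 OP9 stromal and fibroblast markers, 3 were at least 2-fold lower, Col5a1 at -1.61, Col1a1 at -1.49 and Acta2 at -1.30. The list held 5 genes above 0, with the fibronectin gene Fn1 at 0.36 and the chemokine gene Cxcl12 at 0.20. The median was -0.56 in the authors' deposited table, with 6 of the 14 at least 2-fold lower, against 3.91% of all genes. It was -0.17 with the local background subtracted, with 3 of the 14 at least 2-fold lower. The main setting gave a median of -0.27, and the ratio of summed signals was 0.6187 (9436 and 5838). Dcn, a fibroblast marker, was below the limits. Macrophage and mast cell markers were above background for 3 of 9 genes, with no difference larger than the -0.21 of Laptm5. Markers of undifferentiated stem cells had a median of 0.07 over 7 genes, 5 above 0 and 2 below 0. Tdgf1 had 1.88, Dppa5 1.21 and Klf4 -0.36. Endoderm markers had a median of -0.01 over 7 genes, 3 above 0 and 4 below 0, with Sox7 at 0.28 and Dab2 at -0.23. Cardiac markers had a median of -0.87 over 5 genes, 4 below 0 and 1 above 0, with Tnnt2 at -2.38 and Tnni1 at -1.27. Myl7, with signals of 974.6 and 808.3, had -0.01. With the local background subtracted Dppa5 had -0.08 and Tnni1 0.15. The cardiac median was -0.01 in that setting, where Tnnt2 had -1.47. The part of these cell types in the VEGF values was not tested.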

How the data were processed

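The members, lists and alternatives were chosen with earlier results of these data known. The deposited scanner files hold linear intensity, the median of each spot, with 3 scanner gains joined by least squares per the file headers. Per the labels' protocols, RNA was amplified, coupled to Cy5 and hybridised on a TORAY platform. The authors also deposited a table of linear intensity with a median of 25 in each column. Its scaling and empty cells are not explained in the sources used here.

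Spot medians were corrected with the normexp model (offset 50, all spots) in limma 3.58.1 (R 4.3.3). Control and blank spots and 2 flagged probes were then left out. The remaining probe signals were put on the log2 scale and quantile-normalized. The platform annotation gives 1 symbol to 16629 of 23471 probes, several to 0 and none to 6842. A gene was called at 2-fold. Besides the members, up to 4 genes per list with the largest absolute difference, and any called gene, were named; others were named for their role (Figf, Cdh5, Flt3, Kit, Pdgfra, Ptprc, Dcn), for a call under an alternative or for an opposite sign, after their values were seen. The 11 alternatives concerned scaling, offset, background, spot position, probe choice, filter and the authors' table. The steps were tested on simulated data. Python 3.11.15 with pandas 2.3.3 summarised the tables. The number of arrays limits the precision.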

Additional observations from a re-analysis of the deposited data

Results flagged for a closer look

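The scanner also recorded a local background around each spot, a column left out of the main comparison. At blank spots its medians were 14.17 (revertant) and 15.63 (gene-trapped), and at the dim Flt4 spot it was 17.09 and 15.55. At the bright Vegfb spot it was 903.6 in the revertant scan and 169.9 in the gene-trapped scan. At the Kdr spot it was 493.3 and 453.4. Of the 8 genes, these are the ones whose calls changed when the column was subtracted: Vegfb had -0.62 and Kdr -2.04. As a share of signal, the column at both spots lay within the range of most probes with similar signal, on both arrays.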

How the results depend on the processing

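No paired analysis was possible because there is 1 array per group, and no replicate could be left out. Of 88 values of the 8 genes under 11 alternatives, 72 moved by less than the larger control-spot SD (0.1075) and 16 by more; 24 of the former could not move, since probe choice and the filters leave a single-probe gene's value as it is. None of the called genes changed sign. The median of the 8 genes was -0.57 under median scaling. Flt1 and Vegfb were the genes called in every alternative but 2: with the local background subtracted Flt1 and Kdr were called, and in the authors' table Vegfa was called as well. Over all genes, offset 16 gave 238 lower and 87 higher, no background correction 227 and 84, and the authors' deposited values 538 and 253, against 148 and 46 in the main setting. Subtracting the local background gave 185 lower and 280 higher, so that 60.22% of called genes were higher against 23.71%. A smaller offset widens differences of dim genes by construction; for the others the cause was not tested. Signal near background limits Flt4 and Nrp2.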
